A study of Mus musculus with 8 samples.

Results

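The p53 group comprised Trp53, which encodes the tumour suppressor p53, and 9 genes tied to it as inhibitors or transcriptional targets. It was taken by gene symbol, as the rows of the deposited count files whose Ensembl identifier maps to Trp53, Mdm2, Mdm4, Ccng1, Zmat3, Phlda3, Trp53inp1, Sesn2, Aen or Perp. All 10 symbols were found, among 55487 genes listed in each file. All 10 also passed the filter on low counts that left 14360 genes for testing.

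The libraries came from mouse haematopoietic stem cells (HSCs), the cells that renew the blood system, sorted into lysis buffer and prepared with Smart-seq2, a full-length cDNA method for few cells. Of 8 bulk libraries, 4 carry the genotype label NTC, a non-target control, and 4 the genotype label miR652-KD, a knockdown of the microRNA miR-652. By its title the series is about ageing HSCs and the pseudouridine synthase Pus10, and its design text sets the control libraries against the knockdown. The sources used here do not give age, strain, sorting markers, the knockdown reagent, its duration or any treatment shared by both groups. Nothing states that replicates came from separate animals or cultures, so p-values refer to a spread between libraries that may be technical.

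p53 is a transcription factor that is made continuously and degraded almost as fast, so its activity is set largely after transcription. Mdm2 ubiquitinates p53 and Mdm4 masks its activation domain, and damage or ribosomal stress releases p53 from both. Stabilised p53 then induces genes of arrest, repair, metabolism and death, Mdm2 among them, which closes a feedback loop. In HSCs, p53 is known for keeping cells quiescent and for removing cells after DNA damage. Transcript counts show neither the amount of p53 protein nor its activity.

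Counts in genes ran from 14017632 to 16763709 a library in NTC and from 14677644 to 19894821 in miR652-KD. Mature miR-652 is not captured by poly(A) cDNA libraries of this kind. Its hairpin gene Mir652 had 0 to 2 counts in NTC libraries and 0 to 5 in miR652-KD libraries, so the knockdown could not be checked. The 12 HSC markers, among them Slamf1, Hlf, Mecom and Procr, were detected, with summed levels of 2712 to 3495 CPM (counts per 1000000 counts in genes) in NTC and 2942 to 3160 CPM in miR652-KD. Of the 12, 6 had the higher mean in miR652-KD. Groups did not overlap for 1 on the higher side and 1 on the lower side, beside 2.35% and 2.15% of all genes. Ly6a was at 240 to 296 CPM in NTC and 316 to 490 CPM in miR652-KD, and Kit at 440 to 664 and 380 to 435 CPM. Of other cell types, 10 neutrophil and monocyte markers summed to 10010 and 15180 CPM in NTC replicates 3 and 4 and to 1407 to 3960 CPM in the other libraries. Among these markers, Elane was also at 983 CPM in NTC replicate 2 and 1920 CPM in miR652-KD replicate 1. The 5 progenitor markers summed to 557 to 2307 CPM in NTC and 273 to 2358 CPM in miR652-KD. Of these 5, 1 had the higher mean in miR652-KD. Cd34 was at 506 to 521 CPM in NTC and 253 to 342 CPM in miR652-KD. The 9 erythroid markers summed to 2298 to 5677 CPM in NTC, and to 38.2, 121, 190 and 2302 CPM in miR652-KD replicates 1 to 4. T and NK cell markers summed to at most 16.0 CPM, with Cd3e, Cd3g, Trbc2 and Gzma at 0 counts in every library. Macrophage and dendritic markers summed to 577 to 815 CPM in NTC and 1427 to 1885 CPM in miR652-KD, mostly MHC class II transcripts. In these bulk libraries fewer cells of a type and less RNA per cell cannot be told apart.

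Sequences that bear on the comparison are the arms of the microRNA and the places in the 10 transcripts that could pair with them. Each arm is shown with its seed, bases 2 to 8, in capitals (RefSeq, GRCm38.p6, chrX:142739020-142739043 and chrX:142739060-142739080, plus strand).
miR-652-5p: cAACCCUAggagggggugccauuc
miR-652-3p: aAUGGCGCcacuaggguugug
The DNA letters complementary to the seeds are TAGGGTT for the 5p arm and GCGCCAT for the 3p arm. They were searched on the sense strand of the longest annotated 3′ UTR of each gene (GENCODE M21, mm10).

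Among the 10 genes, Aen held the 1 full match to the 3p seed, and Mdm4 and Zmat3 each held 1 full match to the 5p seed. Of 11615 tested protein-coding genes with an annotated 3′ UTR, 2.6% held the 3p match and 8.6% the 5p match. Shares over all genes given here and below are not matched for UTR length. Zmat3, Mdm4, Trp53inp1 and Aen had the longest 3′ UTRs of the group, at 6692, 5436, 4420 and 3793 bases. The sites in Aen, Mdm4 and Zmat3 are shown because they are the only full seed matches in the group. Capitals mark the 7 matching bases, at chr7:78909386-78909392 (plus strand), chr1:132987733-132987739 (minus strand) and chr3:32336514-32336520 (minus strand).
Aen, 3p match: tcattctaccGCGCCATcttaatccct
Mdm4, 5p match: ttgatagcctTAGGGTTttttgttttt
Zmat3, 5p match: tgagtgtgctTAGGGTTtccaacaagt
With 6 bases (CGCCAT), the 3p seed also matched Trp53 and Trp53inp1 once each, against 10.7% of genes with at least 1 such match. The 6 bases of the 5p seed (AGGGTT) were found 4 times in Aen, 3 times each in Mdm4 and Trp53inp1, 2 times in Zmat3 and 1 time in Phlda3, the full matches included. That is 5 of the 10 genes, beside 35.4% of all genes. Neither seed matched Mdm2, Ccng1, Sesn2 or Perp, even over 6 bases. A match is a stretch of letters, and no binding was measured.

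Promoter sequences are shown because p53 acts on its targets by binding DNA; no binding was measured here. RefSeq windows from 250 bases before to 50 after the gene start were at hand for 7 of the 10 genes, in 9 windows, and not for Zmat3, Trp53inp1 and Perp. They were searched for the p53 half-site, a palindromic consensus of 10 bases that reads the same on both strands, with no mismatch. Trp53, Mdm2, Ccng1 and Aen held 1 half-site each and Mdm4, Phlda3 and Sesn2 none, beside 8.4% of all 32851 windows with at least 1, a share that counts windows and not genes. Capitals mark the half-site, at chr11:69580284-69580293 (plus strand), chr10:117710935-117710944 (minus strand) and chr7:78895937-78895946 (plus strand).
Trp53: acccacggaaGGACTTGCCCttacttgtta
Mdm2: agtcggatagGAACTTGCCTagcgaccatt
Aen: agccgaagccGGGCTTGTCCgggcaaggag
A full site meant 2 half-sites at most 10 bases apart with at most 1 mismatch in all. The mismatch could not fall on the fixed C or G of a half-site. Ccng1 alone among the 7 genes held such a site, found in 0.5% of windows. Its half-sites adjoin, in capitals throughout, at chr11:40755462-40755481 (minus strand).
Ccng1: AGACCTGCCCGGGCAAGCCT
Of the windows of Mdm4, 1 lies inside the gene. Other p53 sites of Mdm2 and Ccng1 are known to lie in introns, and a window without a match says nothing of sites elsewhere.

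None of the 10 transcripts passed the test between groups. edgeR's quasi-likelihood test called 0 of 10 at an adjusted p below 0.05, against 0.0418% of all genes, and DESeq2 and limma-voom also called 0. At an unadjusted p below 0.05 there were 2 of 10 by each of the 3 tools, Aen (higher) and Trp53inp1 (lower), against 5.99% of all genes in edgeR, 2.90% higher and 3.09% lower. The 3 tools used the same 8 libraries, and the count depended on single libraries. In edgeR it was 3 of 10 without NTC replicate 1, 0 without NTC replicate 3 and 1 without any other single library. Without NTC replicates 3 and 4 together it was 0. Differences were 5 above and 5 below 0, with a median log2 difference of -0.01, where 49.5% of all genes lay above 0. Groups without overlap were found for Aen alone, on the higher side, against 4.50% of all genes in either direction, 2.35% higher and 2.15% lower. In this design a missed call leaves real changes possible: on simulated counts for 13674 genes the test recovered 34% of 2-fold and 76% of 4-fold changes.

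**Figure D1:**
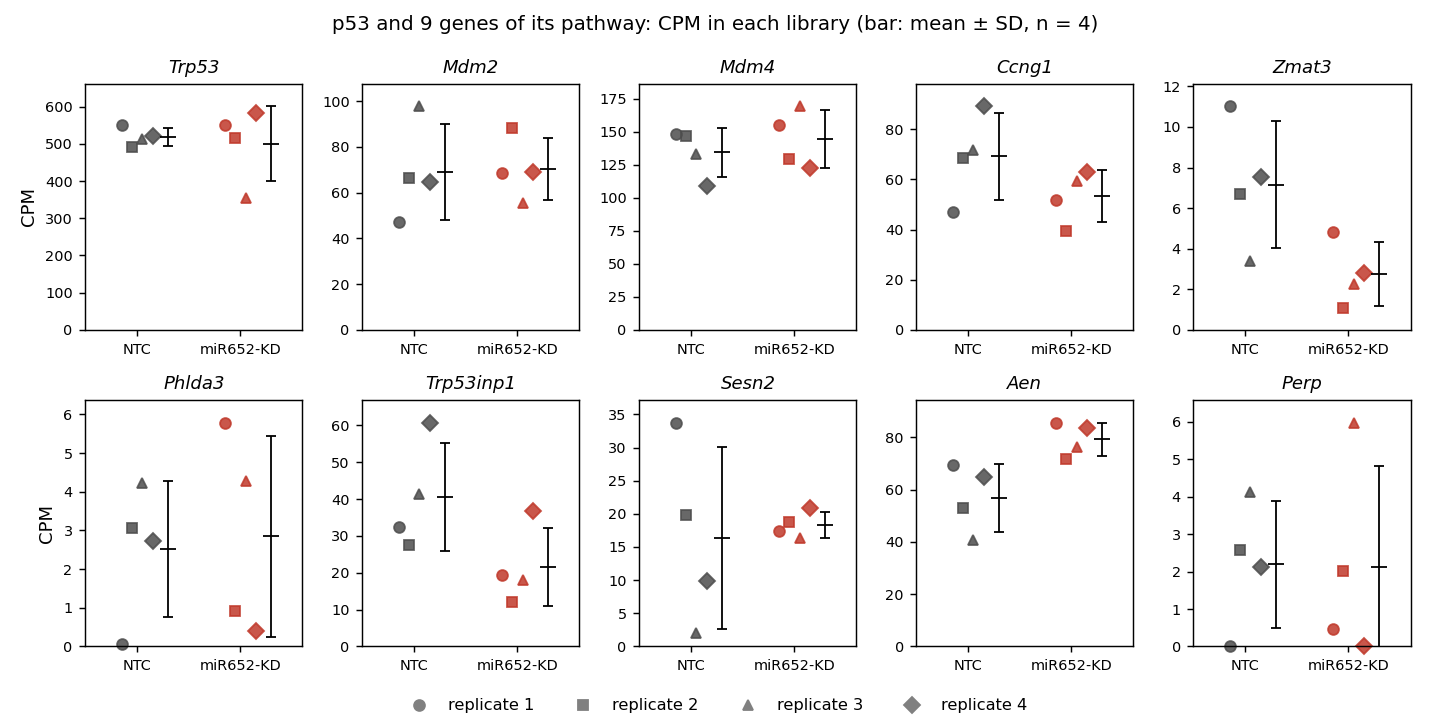
CPM of the 10 genes in each library, with NTC in grey and miR652-KD in red, 1 panel a gene, each y axis from 0. Marker shapes give the replicate number, and the bar beside each group its mean ± SD (n = 4, cut at 0). The 4 miR652-KD values of Aen lie above the 4 NTC values, and in the other panels the groups overlap.

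Trp53 was the most abundant of the group and differed little between groups. It encodes p53 itself and lies on chromosome 11 from 69580359 to 69591873 (mm10, plus strand, ENSMUSG00000059552.13). Its level was 549, 492, 514 and 520 CPM in NTC replicates 1 to 4 and 550, 516, 354 and 582 CPM in those of miR652-KD. The control libraries lay close together, and miR652-KD replicate 3 was the lowest of all 8. Means were 519 ± 23.7 CPM for NTC and 500 ± 101 CPM for the knockdown (SD, n = 4). Between groups the log2 difference was -0.05 (SE 0.14, 95% interval -0.37 to 0.28, edgeR adjusted p = 0.999), and 0.09 without miR652-KD replicate 3. That library also had the highest summed level of 21 G2 and M phase genes, at 2063 CPM, against 930 to 1217 CPM in the other miR652-KD libraries and 760 to 1139 CPM in NTC. Over both groups 19 of these 21 genes lay above 0, with a median log2 difference of 0.63, and 0 were called by edgeR. At an unadjusted p below 0.05 edgeR had 10 of 21, all higher, beside 2.90% of all genes, and 5 of 21 had groups without overlap on the higher side, beside 2.35%. Without miR652-KD replicate 3 these were 16 of 21 above 0, a median of 0.42 and 5 of 21 at that p, all higher. Without NTC replicate 1 it was also 5 of 21, with a median of 0.51. The part of cell cycle differences in the Trp53 value was not tested. Processed pseudogenes of p53 can take or lend reads. Trp53-ps on chromosome 17 held 104 to 217 counts, where Trp53 held 6896 to 10088.

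The inhibitors Mdm2 and Mdm4 gave the same picture. Mdm2, the E3 ligase of p53 and itself a p53 target, was at 47.3, 66.3, 97.9 and 64.6 CPM in NTC replicates 1 to 4 and 68.5, 88.2, 55.6 and 68.9 CPM in those of miR652-KD. Both the highest and the lowest value belonged to NTC, so the knockdown libraries lay inside the control range. The log2 difference was 0.03 (SE 0.24, 95% interval -0.51 to 0.56, edgeR adjusted p = 0.999). Mdm4, a relative of Mdm2 that inhibits p53 without degrading it, was at 148, 147, 133 and 109 CPM in NTC and 155, 130, 170 and 123 CPM in miR652-KD, in replicate order. Values of the groups interleaved. Its log2 difference was 0.11 (SE 0.15, 95% interval -0.22 to 0.43, edgeR adjusted p = 0.999). For Trp53, Mdm2 and Mdm4 these intervals exclude a 2-fold change in either direction. Mdm2 is on chromosome 10 from 117688875 to 117710758 and Mdm4 on chromosome 1 from 132959484 to 133030561, both on the minus strand.

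Aen was higher in every miR652-KD library than in any control, without passing the test. It encodes an exonuclease that p53 induces in apoptosis, and lies on chromosome 7 from 78895854 to 78911209 (plus strand, ENSMUSG00000030609.18). NTC replicates 1 to 4 stood at 69.4, 52.9, 40.6 and 64.8 CPM, and those of miR652-KD at 85.5, 71.9, 76.5 and 83.6 CPM. The gap between groups was small, from 69.4 CPM in the highest control to 71.9 CPM in the lowest knockdown library. Means were 56.9 ± 12.9 and 79.4 ± 6.33 CPM (SD, n = 4). This is a log2 difference of 0.49 (SE 0.19, 95% interval 0.07 to 0.90), with an unadjusted p of 0.0265 and an adjusted p of 0.803 (edgeR, over all genes). Leaving out single libraries gave 0.36 to 0.58, the lowest without NTC replicate 3. Without NTC replicates 3 and 4, the libraries with the most neutrophil and monocyte transcripts, it was 0.39 (edgeR unadjusted p = 0.0817). Aen is the gene with the full 3p seed match, the 4 short 5p matches and a promoter half-site given above; the part of these sequences in its level was not tested.

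Perp, also tied to cell death, encodes a membrane protein of desmosomes and sits on chromosome 10 from 18845020 to 18857073 (plus strand). Its counts were 0, 36, 69 and 31 in NTC and 7, 33, 119 and 0 in miR652-KD, in replicate order. Libraries of either group reached from none to a few CPM, with 5.98 CPM the highest. The log2 difference of -0.08 had a 95% interval of -3.66 to 3.51, so the test could not tell a change of several fold in either direction from none, given this spread between libraries.

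Trp53inp1 had a lower mean in miR652-KD, again without passing. It encodes a stress-induced partner of p53 that also acts in autophagy, and lies on chromosome 4 from 11156431 to 11174379 (plus strand, ENSMUSG00000028211.11). Its level was 32.4, 27.5, 41.5 and 60.7 CPM in NTC replicates 1 to 4 and 19.4, 12.1, 18.1 and 36.7 CPM in those of miR652-KD. Among the knockdown libraries, replicate 4 lay within the control range and the other 3 below it. Means were 40.5 ± 14.7 and 21.6 ± 10.6 CPM (SD, n = 4). The fit gave a log2 difference of -0.90 (SE 0.38, 95% interval -1.75 to -0.06), with an unadjusted p of 0.0384 and an adjusted p of 0.832 (edgeR). The 2 highest controls, replicates 3 and 4, were the libraries with the most neutrophil and monocyte transcripts. Without both the difference was -0.46 (edgeR unadjusted p = 0.337). The highest knockdown library, replicate 4, was the one with the most erythroid transcripts of its group. NTC replicate 2, the lowest control, had the most erythroid transcripts among controls. Without these 2 libraries together, the difference was -1.43. The libraries left out held the extreme Trp53inp1 values of their groups, so the direction of either shift was fixed in advance. The part of these cell types in the Trp53inp1 value was not tested.

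Ccng1 and Zmat3 had values on the same side. Ccng1 encodes cyclin G1, a p53 target that recruits a phosphatase to Mdm2, and lies on chromosome 11 from 40748552 to 40755311 (minus strand). It was at 46.9, 68.6, 71.8 and 89.2 CPM in NTC replicates 1 to 4 and 51.9, 39.5, 59.4 and 62.8 CPM in those of miR652-KD. The groups overlapped widely, since NTC replicate 1 was the second lowest of all. Its log2 difference was -0.37 (SE 0.23, 95% interval -0.90 to 0.15, edgeR adjusted p = 0.934), and -0.11 without NTC replicates 3 and 4. Those replicates held the highest Ccng1 values of the controls, so the direction of that shift was fixed in advance. Zmat3 encodes an RNA-binding zinc finger protein and is a direct p53 target, on chromosome 3 from 32334792 to 32366014 (minus strand). Low counts carried its values, which were 164, 94, 57 and 110 counts in NTC and 71, 18, 45 and 49 in miR652-KD. In CPM these were 11.03, 6.71, 3.40 and 7.52 in NTC and 4.84, 1.09, 2.26 and 2.83 in miR652-KD. In 3 knockdown libraries the level was below every control, and replicate 1 lay above NTC replicate 3. The log2 difference was -1.36 (SE 0.70, 95% interval -2.91 to 0.19, edgeR adjusted p = 0.869). It ran from -1.78 to -1.09 with single libraries left out, and was -1.66 without NTC replicates 3 and 4.

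Sesn2 and Phlda3, both restraints on growth signalling, did not separate the groups. Sesn2 encodes sestrin 2, a leucine sensor that inhibits mTORC1, on chromosome 4 from 132492032 to 132510501 (minus strand). It was at 33.8, 19.8, 2.03 and 9.91 CPM in NTC replicates 1 to 4 and 17.4, 18.7, 16.3 and 20.9 CPM in those of miR652-KD. The knockdown libraries lay together, and the controls spread on both sides of them. The SD was 13.7 CPM among controls and 1.98 CPM among knockdown libraries (n = 4); the difference in spread was not tested. The log2 difference of 0.18 (SE 0.64, edgeR adjusted p = 0.999) had a 95% interval of -1.24 to 1.59, and was -0.53 without NTC replicates 3 and 4. Those replicates held the lowest Sesn2 values of the controls, so the direction of that shift was fixed in advance. Phlda3, which competes with Akt for membrane lipids, had 1, 43, 71 and 40 counts in NTC and 85, 15, 85 and 7 in miR652-KD. It lies on chromosome 1 from 135766119 to 135769136 (plus strand). Its highest level was 5.79 CPM, and its 95% interval of -2.52 to 2.85 around a log2 difference of 0.16 covers large changes either way.

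**Figure D2:**
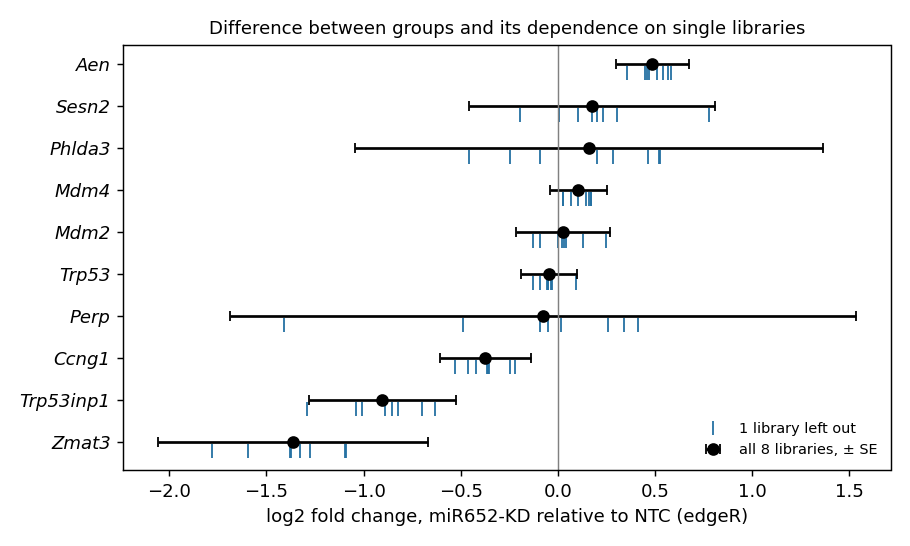
Log2 fold change of the 10 genes, miR652-KD relative to NTC, with all 8 libraries (black, ± SE) and with each library left out in turn (blue ticks). Values of Aen stay between 0.36 and 0.58 and those of Trp53inp1 between -1.29 and -0.63, while those of Trp53, Mdm2, Sesn2, Perp and Phlda3 fall on both sides of 0.

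Per length of annotated exon, the order of the levels was Trp53, Ccng1, Mdm2, Aen, Mdm4, Sesn2, Trp53inp1, Phlda3, Perp and Zmat3. Trp53 had a mean of 126 CPM per kb of exon over the 8 libraries, higher than 96.9% of tested genes, and its lowest library (87.5) lay above the highest of Ccng1 (25.4). Every other neighbour in this order overlapped the next over the libraries. Ccng1, Mdm2, Aen and Mdm4 had means of 17.5, 13.7, 11.8 and 9.42 CPM per kb, Sesn2 and Trp53inp1 4.99 and 4.80, Phlda3 and Perp 1.72 and 1.11, and Zmat3 0.434. The measure depends on the gene model. Divided by the longest coding transcript instead of all exons, Mdm2 and Mdm4 stood at 22.2 and 19.6 CPM per kb, above Ccng1 at 17.5. Under either length Trp53 ranked first and Zmat3 last.

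**Figure D3:**
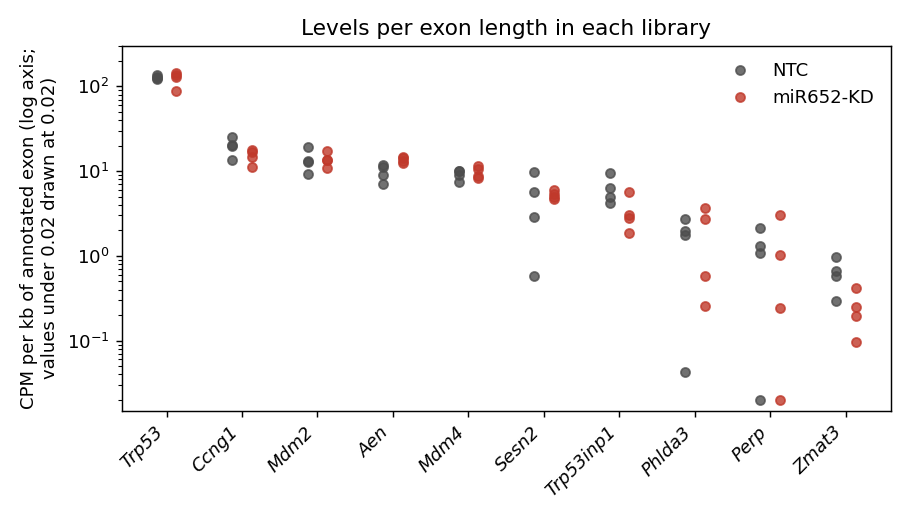
CPM per kb of annotated exon on a log axis, 1 point a library, NTC in grey and miR652-KD in red, genes ordered by their mean. The points of Trp53 stand apart above all others, and values under 0.02 are drawn at 0.02 (Perp in 2 libraries).

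The 10 genes did not move as 1 block across libraries. Over the 8 libraries, the most similar pair was Ccng1 and Trp53inp1 (Pearson r = 0.81 of log2 CPM), followed by Phlda3 and Perp (0.77) and by Sesn2 and Aen (0.73). The least similar were Mdm2 and Sesn2 (-0.68). These values describe 8 libraries of 2 groups, over 45 pairs, and carry no test. Genes counted in the same library share its depth and cell mixture, which differed between libraries. Among 10116 other protein-coding genes whose mean reached 5 CPM, those most like Trp53 were Fbxw10 (r = 0.975), Prex1 (0.972) and Maoa (0.972). All 3 were, like Trp53, lowest in miR652-KD replicate 3. Those most like Mdm2 were Ifi35 (0.954), Mlx (0.907) and Ess2 (0.904), also over 8 libraries. These genes were picked as the highest of 10116 correlations in the same data and carry no test. Their Spearman correlations with Trp53 or Mdm2 were lower, at 0.762 to 0.905.

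The wider p53 pathway gave no calls either. Of 73 other genes in 7 lists by role, 64 were tested and 0 were called by edgeR, DESeq2 or limma-voom. At an unadjusted p below 0.05 edgeR had 5 of 64 (3 higher, 2 lower), beside the 5.99% of all genes. Values above 0 were found for 36 of 64, with a median log2 difference of 0.05, beside 0.00 over all genes. The groups did not overlap in 5 of 64, with 3 higher and 2 lower, beside 2.35% of all genes higher and 2.15% lower.

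Upstream of p53, the list of relatives and activating kinases had 4 of 9 tested genes above 0, with a median of -0.02. Its relatives Trp63 and Trp73 had 0 counts in every library. Atm, the kinase that signals DNA breaks, had a log2 difference of 0.10, the checkpoint kinases Chek1 and Chek2 0.53 and -0.02, and Hipk2, which phosphorylates p53 before apoptosis, -0.43 (edgeR adjusted p 0.918 or above for all 4). Among 10 tested genes of p53 turnover, 5 were above 0 and the median was -0.03. Cdkn2a, the locus of the Mdm2 antagonist p19Arf, had 0 counts in every library. Ppm1d, a phosphatase that switches p53 signalling off, was at 0.11. Rpl11, a ribosomal protein that binds Mdm2 under ribosomal stress, averaged 742 ± 44.1 CPM over NTC and 872 ± 57.0 CPM over the knockdown libraries (SD, n = 4), without overlap. That log2 difference of 0.24 did not pass (edgeR adjusted p = 0.781). Cop1, another ubiquitin ligase of p53, lay apart in the other direction and is named after its values were seen. It was at 39.3 to 50.1 CPM in NTC and 21.0 to 37.05 CPM in miR652-KD, a log2 difference of -0.55 (SE 0.23, edgeR unadjusted p = 0.0388) that did not pass either.

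Among arrest targets, 4 of 10 were above 0, with a median of -0.10. Cdkn1a, which encodes the CDK inhibitor p21 and is the best-known p53 target, was low throughout. It was at 4.30, 12.7, 13.2 and 4.92 CPM in NTC replicates 1 to 4 and 5.04, 2.37, 0.05 and 4.91 CPM in those of miR652-KD. The lowest value, from 1 count, was again miR652-KD replicate 3, the library highest in G2 and M phase genes. The part of cell cycle differences in the Cdkn1a value was not tested. The log2 difference of Cdkn1a was -1.50, with a 95% interval of -3.75 to 0.74 (edgeR adjusted p = 0.944). It was -1.09 without that library. Gadd45a, a stress-induced growth arrest gene, was at -0.72 (95% interval -1.70 to 0.27), and the antiproliferative gene Btg2 at -0.05. Ckap2, a spindle protein, had the smallest p of the list, at 0.82 (edgeR adjusted p = 0.860), and was at 0.38 without miR652-KD replicate 3.

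Death targets were 8 of 11 above 0, with a median of 0.09. Bax, which permeabilises mitochondria, was at 67.6, 59.8, 65.9 and 59.5 CPM in NTC replicates 1 to 4 and 71.0, 76.4, 73.3 and 67.6 CPM in those of miR652-KD. The lowest knockdown library, replicate 4, lay just above the highest control. The log2 difference was 0.19 (SE 0.14, 95% interval -0.11 to 0.50, edgeR adjusted p = 0.957). The BH3-only gene Bbc3 was at -0.25 and the death receptor gene Fas, near the limit of detection, at 0.13. Pmaip1 had counts in 2 libraries only and was not tested.

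Repair targets had 5 of 9 above 0 and a median of 0.08. Polh, a translesion polymerase, was higher in all miR652-KD libraries, at 17.5 ± 6.87 CPM against 8.89 ± 1.44 CPM in the controls (SD, n = 4). Its log2 difference of 0.98 did not pass (edgeR adjusted p = 0.801). Ddb2, a damage sensor, was at -0.10 and Rrm2b, a ribonucleotide reductase subunit, at 0.37. Metabolic and stress targets had 6 of 10 above 0 and a median of 0.24. The sestrin genes Sesn1 and Sesn3 were at 0.29 and -0.52, and Tigar, which diverts glycolysis, at 0.69 from levels of 7.77 CPM or less (edgeR adjusted p 0.936 or above for all 3). Stem cell quiescence targets had 4 of 5 above 0 and a median of 0.25. Gfi1 and Ndn, p53 targets known to hold HSCs in quiescence, were at 0.25 and 0.82. Ndn moved to 0.54 without NTC replicate 1, to 1.42 without NTC replicate 4 and to 1.68 without NTC replicates 3 and 4. Replicate 1 was the lowest Ndn control and replicates 3 and 4 the highest, so the direction of each shift was fixed in advance.

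**Figure D4:**
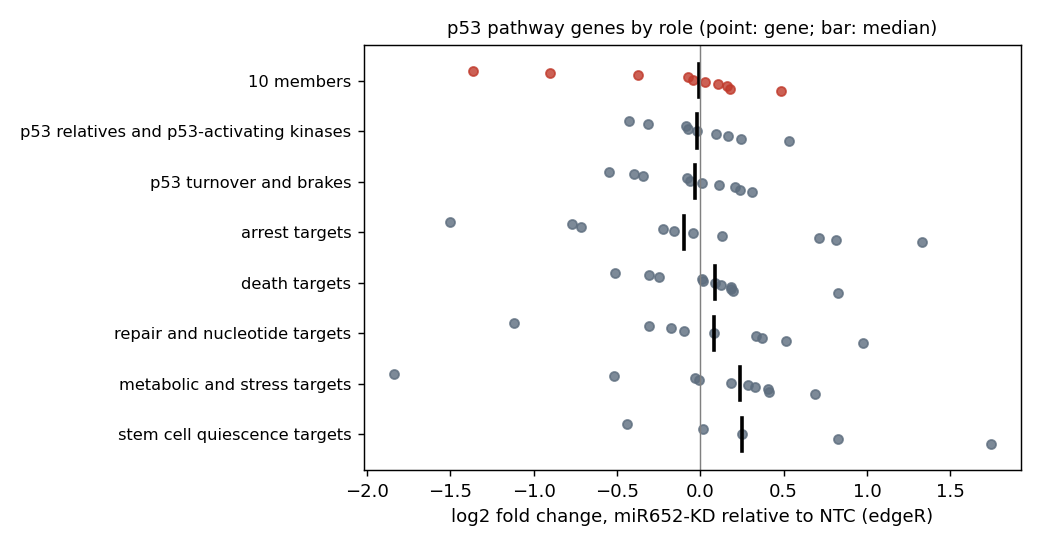
Log2 fold change of each tested gene, miR652-KD relative to NTC, for the 10 genes (red) and 7 other lists of p53 pathway genes (grey), with the list median as a bar. Medians run from -0.10 for arrest targets to 0.25 for stem cell quiescence targets, and single genes spread on both sides of 0 in every list.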

How the data were processed

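The deposited files hold raw counts per gene, 1 file a library. The submitters' processing notes name HISAT2 2.1.0, HTSeq 0.11.2, DESeq2 and the mm10 build. Neither annotation release nor strand setting is given in the sources used here, so overlapping and antisense reads cannot be separated by strand. The 5 HTSeq summary lines were left out; reads outside genes were 9.69% to 16.94% and ambiguous reads 8.94% to 12.28% of each file. Identifiers matched GENCODE M21 for 55394 of 55487 genes. Smart-seq2 has no molecular identifiers, so reads are not independent molecules.

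CPM used all counts in genes. The test was edgeR 4.0.16 (R 4.3.3): TMM, filterByExpr defaults (minimum count 10, total 15), robust quasi-likelihood, Benjamini-Hochberg over 14360 genes, called below 0.05. SE is the log2 fold change over the square root of F; intervals use its t distribution. Correlations used log2 CPM with a prior count of 2. No 2 libraries agreed within sampling noise.

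Named genes were the 10 genes, 19 pathway genes listed by name, and the gene of smallest p in each list; Cdca8, named by the G2 and M phase list, appears in the closing section. Of the named genes, 1 is not reported here. Members and lists were chosen with earlier results of these data known. The procedure was tested on simulated data with 200 changed genes, each with a mean of at least 5 CPM, and 5 unchanged genes were called. Alternatives were RLE and no scaling, DESeq2 1.42.0, limma-voom (limma 3.58.1), 2 other filters, the replicate number as a block, and left-out libraries.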

Additional observations from a re-analysis of the deposited data

Results flagged for a closer look

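In 4 of 68 sets of 4 libraries, 1 library stood apart from the other 3 by Dixon's criterion, where chance gives about 1 in 20. Ckap2 was at 53.63 CPM in miR652-KD replicate 3 against 19.9 to 23.2 CPM in the others of its group. Polh was at 27.7 CPM in that same library against 12.8 to 14.9 CPM. Pmaip1, which encodes the BH3-only protein Noxa, had 0.75 CPM in NTC replicate 4 and 0.24 CPM in miR652-KD replicate 2, and 0 counts in all other libraries. With the rest of each group at 0, both Pmaip1 sets met the criterion by construction, and the rate of 1 in 20 does not apply to them. No value of the 10 genes themselves stood apart in this way.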

How the results depend on the processing

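Over all genes 6 were called. DESeq2 called 61, limma-voom 1, the fit with the replicate block 0, and leaving out any single library 0 each time (789 to 992 at an unadjusted p below 0.05). Leaving out NTC 3 and 4 gave 0, as did leaving out NTC 2 and miR652-KD 4 (884 and 846 at an unadjusted p below 0.05). Same-numbered libraries correlated at -0.03 to -0.01 in their deviations from the group means, and libraries of other numbers at -0.03 to 0.05. No pairing by number was seen, but values so taken over all genes cannot exclude a shared source. None of the 10 genes was called under any of 17 alternatives; Perp, Phlda3 and Zmat3 did not pass the filter of 5 CPM. Directions held in 510 of 555 gene values, turned in 44, and Cdca8 passed in DESeq2 (adjusted p = 0.0426).

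With single libraries left out, log2 differences that turned were -0.130 to 0.093 for Trp53, -0.13 to 0.25 for Mdm2, -0.46 to 0.53 for Phlda3, -0.19 to 0.78 for Sesn2, -1.41 to 0.42 for Perp, -0.21 to 0.25 for Btg2, -0.72 to 0.58 for Fas, -0.048 to 0.442 for Ppm1d, -0.15 to 0.29 for Atm, -0.34 to 0.16 for Chek2, -0.39 to 0.28 for Ddb2, -0.53 to 1.03 for Tigar and -0.29 to 0.55 for Gfi1. Without NTC 3 and 4 they were -0.026 for Mdm4, -0.53 for Sesn2, 0.68 for Perp, 0.34 for Btg2 and 0.10 for Ddb2. NTC 3 and 4 were the lowest controls for Mdm4 and Sesn2 and the highest for Btg2. For these genes the direction of the shift was fixed in advance. Without NTC 2 and miR652-KD 4 the differences that turned were 0.43 for Perp, -0.042 for Ppm1d, -0.20 for Atm, 0.12 for Chek2 and -0.18 for Gfi1. The replicate block gave -0.37 for Phlda3 and -1.16 for Fas, and limma-voom -1.32 for Fas; limma-voom also gave -2.62 for Cdkn1a. Without a turn, single libraries left out moved Bbc3 (-0.54 to -0.05), Chek1 (0.31 to 0.82), Rrm2b (0.22 to 0.64), Sesn1 (0.20 to 0.50), Sesn3 (-0.81 to -0.29), Hipk2 (-0.52 to -0.20), Ccng1 (-0.53 to -0.22) and Mdm4 (0.03 to 0.17) by over 1.5 times. The cause was not tested. The spread of low counts, 0 to 119, limits Perp and Phlda3.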
